A study of Mchenga conophoros with 13 samples.

Results

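Gli3, fgfr2 and lrig1, signalling genes associated with radial glia, were followed in spatial transcriptomic profiles of the telencephalon of Mchenga conophoros, a Lake Malawi cichlid whose males build sand castles. The 3 genes were taken by name and are 3 of the 32471 rows of each of 13 count matrices. Males labelled as building before collection (n = 2, building 1 and building 2) were compared with control males labelled as not building (n = 2, control 1 and control 2), all of them adults older than 180 days with no strain given. Building 1 was represented by 1 capture area (C), and each of the other males by 4 (A to D), so that there were 5 building and 8 control capture areas. Telencephala were cut coronally at 10 µm and placed on Visium slides, whose barcoded spots are 55 µm across and can hold several cells. Spots and sections of a male are not replicates, so all tests were made on sums per male.

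Radial glia line the ventricle of the fish telencephalon, keep dividing in the adult and serve both as neural stem cells and as support cells. Gli3 is a zinc finger transcription factor that mediates Hedgehog signalling, acts largely as a repressor when the ligand is absent and patterns the dorsal and ventral telencephalon of vertebrates. Fgfr2 is a receptor tyrosine kinase for fibroblast growth factors, and Lrig1 is a transmembrane protein that restrains ErbB receptors and, in mice, marks quiescent stem cells of several tissues. In the annotation of the M. conophoros genome each gene has 1 protein-coding locus of that symbol, on linkage group 9 for gli3, 13 for fgfr2 and 5 for lrig1. A locus named LOC146567185 overlaps gli3 there and none overlaps fgfr2 or lrig1, but the reads were counted on another annotation, that of Maylandia zebra.

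The 6751 spots analysed held 51779064 unique molecular identifiers (UMIs, each 1 counted transcript molecule), with medians from 1225.5 UMIs per spot in control 1 C to 11973 in control 2 D. Control 1 C stood apart in depth, with 73 of its 444 spots under 500 UMIs. Each radial glia marker (gfap, LOC101468392; fabp7; slc1a3, LOC101470384; s100b) was detected, and their summed level was 1266 and 1092 counts per 1000000 UMIs (CPM) in building males and 1234 and 1262 in control males. All 3 genes were sparse, so their values rest on few molecules, and the intervals given cover counting error only. In a spot, fewer cells of a type and less RNA per cell cannot be told apart.

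Gli3 was represented by 358 UMIs in 274 spots (4.06%), and 79.9% of those spots held a single UMI. Its level was 9.28 and 3.86 CPM in building 1 and building 2, against 10.6 and 9.64 in control 1 and control 2. Building 2 was the lowest male, with an exact Poisson 95% interval of 3.13 to 4.71 that did not overlap those of the others, whose intervals overlapped one another. Capture areas differed more than males did. In building males gli3 lay between 3.13 and 4.76 CPM in the 4 areas of building 2 and at 9.28 in building 1 C. Control areas spread from 0.545 in control 1 D, which held 1 gli3 UMI in 399 spots, to 17.4 in control 1 B, with a median of 10.3. Within control 1 the areas fell apart into A and B (16.7 and 17.4) and C and D (2.97 and 0.545). The intervals of A and B did not overlap those of C and D.

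Fgfr2 was represented by 201 UMIs in 180 spots (2.67%), and 91.7% of those spots held a single UMI. Its level was 6.04 and 3.14 CPM in building 1 and building 2, against 3.26 and 4.66 in control 1 and control 2. The groups overlapped, and only building 1 and building 2 had intervals (4.01 to 8.73 and 2.49 to 3.92) that did not. Areas ranged from 1.93 (building 2 B) to 6.04 in building males and up to 6.96 (control 2 D) in control males. No fgfr2 UMI was found in the 444 spots of control 1 C, where 3 counts would be 4.46 CPM and 0.676% of spots, and the exact Poisson 95% interval reaches 5.48 CPM.

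Lrig1 was represented by 853 UMIs in 690 spots (10.2%), of which 82.2% held a single UMI. Its level was 25.03 and 14.2 CPM in building 1 and building 2, against 14.8 and 18.1 in control 1 and control 2, again with overlapping groups. The interval of building 1 (20.7 to 30.0) lay above those of the other males, of which building 2 (12.8 to 15.8) and control 2 (16.1 to 20.4) did not overlap either. Areas ranged from 10.7 (building 2 C) to 25.03 in building males and from 7.43 (control 1 C) to 30.2 (control 2 D) in control males. Control 2 D held 130 of the 288 lrig1 UMIs of its male, in 27.7% of its spots. When each spot of at least 2000 UMIs was thinned to 2000, the expected share with lrig1 there was 5.97%, the highest of the 13 areas, against 1.96 to 3.24% in the other areas of control 2.

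**Figure D1:**
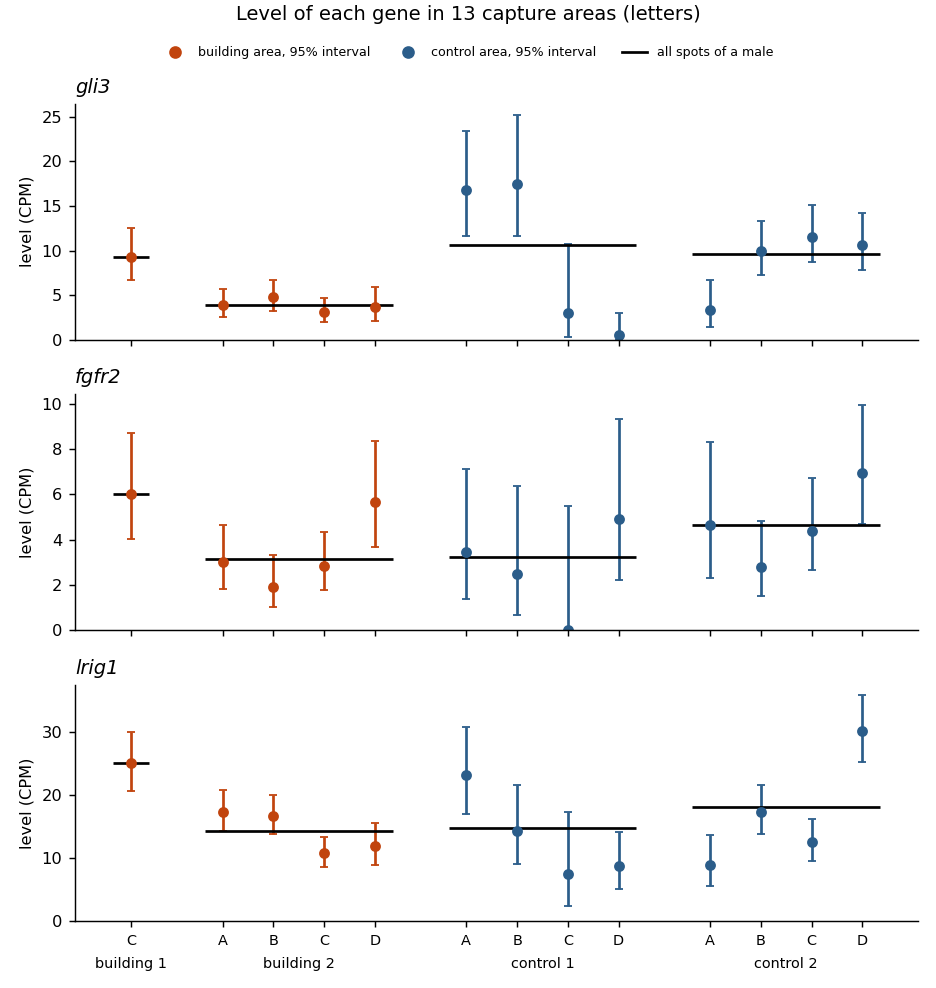
Level of each gene (CPM) in the 13 capture areas, with building males left of control males; points are areas with exact Poisson 95% intervals, and black lines are all spots of a male. Gli3 is lowest in control 1 D (0.545) and lrig1 highest in control 2 D (30.2).

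Whether building males differed from control males was tested on 1 sum per male with edgeR (quasi-likelihood). None of the 3 genes differed beyond the spread between males. The log2 fold change was -0.72 ± 0.44 (SE) for gli3, 0.12 ± 0.46 for fgfr2 and 0.19 ± 0.30 for lrig1, each with a Benjamini-Hochberg adjusted p of 1.00 in edgeR. No gene of 15532 tested was called (0%) by edgeR, with 306 at an unadjusted p under 0.05, and DESeq2 called 17. The gli3 difference was -1.39 without building 1 and -0.14 without building 2, and fgfr2 and lrig1 had the opposite sign without building 1 (-0.37 and -0.23).

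None of the genes differed within the spot classes either, whose definitions are given with the regional comparison. In pallial spots gli3 differed by -0.95 ± 0.52, fgfr2 by 0.18 ± 0.48 and lrig1 by -0.17 ± 0.24 on the log2 scale (adjusted p 1.00 each, edgeR). No gene of 14132 was called there (0%; 281 at an unadjusted p under 0.05, 7 called by DESeq2). In subpallial spots gli3 differed by -1.29 ± 0.62 and lrig1 by 0.09 ± 0.40 (adjusted p 1.00 each, edgeR), fgfr2 with 36 UMIs was too rare to be tested, and no gene of 12379 was called (0%; 145 at an unadjusted p under 0.05, 5 by DESeq2). The gli3 difference in subpallial spots was -2.33 (edgeR adjusted p 3.53e-08) when building 1 was left out, so that building 2 stood alone against the control males, and -0.37 when building 2 was left out. In glia-rich spots gli3 differed by -0.21 ± 0.46 (adjusted p 1.00, edgeR) and lrig1 by 0.59 ± 0.34 (adjusted p 0.903, edgeR), with no gene of 10600 called (0%; 666 at an unadjusted p under 0.05, 11 by DESeq2), and fgfr2 with 44 UMIs was again not tested. Fgfr2 in glia-rich spots was 20.9 and 9.04 CPM in building 1 and building 2, on 10 and 22 UMIs, against 3.44 and 6.53 in control 1 and control 2, on 2 and 10 UMIs. These fgfr2 values did not overlap between the groups, but rest on few molecules and have no test. Lrig1 values in glia-rich spots did not overlap between the groups either, being higher in building males, yet the lrig1 difference did not pass. Gli3 values did not overlap over all spots, in pallial spots or in subpallial spots. There they were lower in building males, and none of these gli3 differences passed. With 2 males in each group such a separation often arises by chance, and its share among all genes was not counted.

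The genes differed most clearly in where in the telencephalon they lay. Spots were called pallial (2944) or subpallial (2022) by whether the summed markers of 1 region were at least 2-fold those of the other. The pallial markers were slc17a6, slc17a7, bhlhe22, tbr1, eomesa, emx3 and neurod6b, which mark glutamatergic neurons of the dorsal telencephalon. The subpallial markers were dlx2, dlx5, gad1b, gad2, isl1, lhx6, nkx2-1, six3 and sp9, which mark GABAergic neurons of the ventral telencephalon. A class is a range of this ratio and not a cell type, and 812 spots lay within 0.25 log2 units of a border.

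Gli3 was lower in pallial than in subpallial spots. It reached 1.52 and 2.29 CPM in pallial spots and 22.0 and 5.51 in subpallial spots of building 1 and building 2. In control 1 and control 2 it reached 4.29 and 3.64 in pallial spots and 23.3 and 31.6 in subpallial spots. The pallial value lay below the subpallial one in all 4 males and in 12 of 13 capture areas, the exception being control 1 D (1.03 and 0 CPM, on 1 and 0 UMIs). The log2 fold change of pallial over subpallial spots was -2.47 ± 0.32 (adjusted p 3.07e-04, edgeR), where 23.6% of 13670 genes were called in either direction. Subpallial spots held 64.2% of gli3 UMIs and 30.6% of all UMIs. The expected share of spots with gli3 after thinning was 0.556 ± 0.292% in pallial and 3.12 ± 1.56% in subpallial spots (SD, n = 4 males), and unthinned shares were 2.48% and 7.67% at median depths of 8151 and 6844 UMIs. Building 2 had the smallest difference between the regions.

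Fgfr2 showed the opposite order. It reached 9.12 and 4.25 CPM in pallial spots and 3.14 and 1.84 in subpallial spots of building 1 and building 2. In control 1 and control 2 it reached 5.52 and 5.34 in pallial spots and 1.17 and 3.65 in subpallial spots. Pallial spots were higher in all 4 males and in 9 of 13 areas, with 3 areas lower. The log2 fold change was 1.19 ± 0.31 (adjusted p 0.0187, edgeR). The call was lost without building 2 (adjusted p 0.0846, edgeR) and without control 1 (adjusted p 0.0589), at log2 fold changes of 1.16 and 1.05, and without male as a block (1.26, adjusted p 0.0540, edgeR). Lrig1 was spread over both regions, at 16.4 ± 2.20 CPM in pallial and 19.3 ± 6.46 in subpallial spots (SD, n = 4 males), with a log2 fold change of -0.14 ± 0.15 (adjusted p 0.564, edgeR). Whether the regional difference depended on building was tested as an interaction, and none of the genes passed: 0.90 ± 0.65 for gli3, 0.30 ± 0.69 for fgfr2 and -0.15 ± 0.32 for lrig1 on the log2 scale (adjusted p 1.00 each, edgeR, 0.00732% of 13670 genes called).

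All 3 genes were higher where radial glia were rich. Glia-rich spots were the 10% of each area (676 spots) with the highest summed residuals of gfap, fabp7, slc1a3 and s100b, and were compared with the other 6075 spots. Lrig1 reached 71.1 and 48.9 CPM in glia-rich spots and 19.7 and 10.5 in other spots of building 1 and building 2. In control 1 and control 2 it reached 24.1 and 45.7 in glia-rich spots and 13.8 and 15.2 in other spots. Glia-rich spots were higher in all 4 males and in 11 of 13 areas, and the log2 fold change was 1.79 ± 0.19 (adjusted p 5.29e-07, edgeR), where 15.9% of 14080 genes were called. Lrig1 was found in 25.1% of glia-rich spots, against 8.56% of other spots, and the median depths were 6239.5 and 6751 UMIs. As a background, 1.49% of the 335 spots with no UMI of the 4 glial markers held lrig1, at a median depth of 1029 UMIs.

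Gli3 averaged 17.4 ± 4.53 CPM in glia-rich and 7.34 ± 3.03 in other spots (SD, n = 4 males), a log2 fold change of 1.40 ± 0.26 (adjusted p 6.66e-04, edgeR), and was higher in all 4 males and in 9 of 13 areas. With a wider list of 11 radial glia genes it did not pass (0.82, adjusted p 0.0645, edgeR). Gli3 was found in 8.88% of glia-rich and 3.52% of other spots, and in 1.19% of the spots with no glial marker UMI. These last spots were shallow, with a median of 1029 UMIs, and held gli3 at 5.05 ± 6.52 CPM on 4 UMIs. Fgfr2 averaged 9.98 ± 7.63 in glia-rich and 3.64 ± 0.929 in other spots, a log2 fold change of 1.40 ± 0.37 (adjusted p 0.0105, edgeR). Its difference was uneven, with 20.9 and 4.33 CPM in glia-rich and other spots of building 1 and 3.44 and 3.24 in those of control 1, and the call was lost without building 1 (adjusted p 0.0900) and without building 2 (adjusted p 0.176, edgeR), and with log-normalized scores (1.01, adjusted p 0.0733, edgeR). Fgfr2 was found in 5.62% of glia-rich and 2.34% of other spots. None of the spots with no glial marker UMI held fgfr2, which allows a share of up to 0.896% or a level of up to 5.13 CPM. That limit lies above the mean of other spots, so these few UMIs cannot show a lower level.

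**Figure D2:**
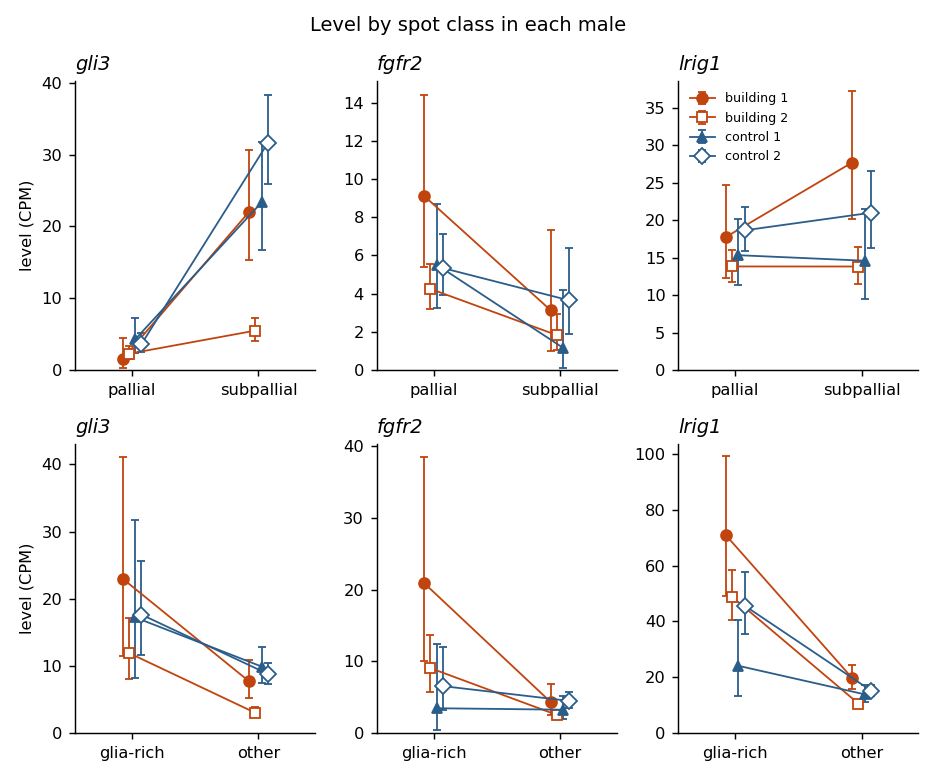
Level of each gene (CPM) in pallial and subpallial spots (top) and in glia-rich and other spots (bottom) of each male, with exact Poisson 95% intervals, where building males are red, control males blue and lines join the classes of a male. Gli3 is higher in subpallial and fgfr2 in pallial spots of all 4 males.

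The regional orders were also seen in spots that were not glia-rich. Leaving out the glia-rich set does not remove glia, since 6416 of the 6751 spots held at least 1 UMI of the 4 glial markers. Outside the glia-rich set gli3 differed by -2.93 ± 0.40 (adjusted p 3.02e-04, edgeR) and fgfr2 by 1.06 ± 0.33 (adjusted p 0.0394, edgeR) in pallial over subpallial spots on the log2 scale. Among glia-rich spots, 308 pallial and 209 subpallial, gli3 averaged 10.7 ± 3.83 CPM in pallial and 30.1 ± 12.1 in subpallial spots (SD, n = 4 males). Its log2 fold change of -1.24 ± 0.54 did not pass (adjusted p 0.174, edgeR), nor did that of lrig1, -0.32 ± 0.29 (adjusted p 0.633, edgeR), where 11.2% of 6873 genes were called. With the top 20% of spots as glia-rich, gli3 passed at -1.39 (adjusted p 0.0245, edgeR). Fgfr2 had 33 UMIs in pallial and 7 in subpallial glia-rich spots and was not tested.

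Glia-rich spots held 9.78% of all UMIs, 22.1% of gli3, 21.8% of fgfr2 and 25.6% of lrig1 UMIs (means of 4 males), so that most UMIs of each gene lay outside them. The defining markers had log2 fold changes there of 1.31 (s100b), 1.66 (gfap), 2.53 (fabp7) and 3.67 (slc1a3, edgeR). Since these markers chose the spots, their own values are raised by that choice. The values of gli3, fgfr2 and lrig1 (1.40, 1.40 and 1.79) cannot be measured against them. Whether the UMIs outside these spots came from glia was not tested. For gli3 a larger mean share lay with six3, a homeobox gene of ventral telencephalic neurons, though not in building 2. The 10% of spots highest in six3 held 45.1 ± 24.6% of gli3 UMIs and 12.7 ± 1.36% of all UMIs (SD, n = 4 males). Only 32 of these 676 spots were also glia-rich. Six3 spots outside the glia-rich set carried 143 of the 358 gli3 UMIs. Glia-rich spots outside the six3 set carried 61, and 138 were in neither. Six3 spots held 9.56 ± 2.99% of lrig1 and 7.88 ± 2.66% of fgfr2 UMIs (SD, n = 4 males), and neither gene passed in the six3 set.

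Gli3 was higher in six3 spots of 3 of the 4 males, and not in building 2. Gli3 reached 36.9 and 2.72 CPM in six3 spots and 4.55 and 4.01 in other spots of building 1 and building 2. In control 1 and control 2 it reached 45.9 and 48.0 in six3 spots and 5.41 and 4.50 in other spots. Building 2 had 8 gli3 UMIs in 270 six3 spots, although it was the male with the most UMIs. Over the 4 males the log2 fold change was 2.43 ± 0.49 (adjusted p 0.00490, edgeR; 17.7% of 13752 genes called), and it was 3.21 without building 2 (adjusted p 8.86e-07) and 2.23 without control 1 (adjusted p 0.0551, edgeR). Six3 is 1 of the subpallial markers, so six3 spots were also set against other subpallial spots, a comparison chosen after seeing the data: gli3 then differed by 1.304 ± 0.475 (adjusted p 0.1003, edgeR) and lrig1 by -0.90 ± 0.25 (adjusted p 0.0339, edgeR; 13.3% of 11457 genes called).

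Across areas, gli3 in subpallial spots was set beside six3 over all spots, which also varies with the share of subpallial spots (12.4% in control 2 D to 42.2% in building 2 A). Six3 was at 293, 291 and 250 CPM in building 2 A, control 1 C and control 1 D, where gli3 in subpallial spots was at 4.72, 2.97 and 0, on 14, 1 and 0 UMIs. The highest subpallial gli3 levels, 51.7, 44.2, 43.5 and 42.4, were found in control 1 A, control 2 D, control 2 C and control 1 B, with six3 at 68.0, 30.4, 105 and 176. Building 1 C had six3 at 183 and gli3 at 22.0. The 7 spots with at least 4 gli3 UMIs came from 4 areas, and 6 of them were subpallial, 6 were six3 spots and 1 was glia-rich. The level of the section along the telencephalon is not given in the labels, so its part in these differences was not tested.

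**Figure D3:**
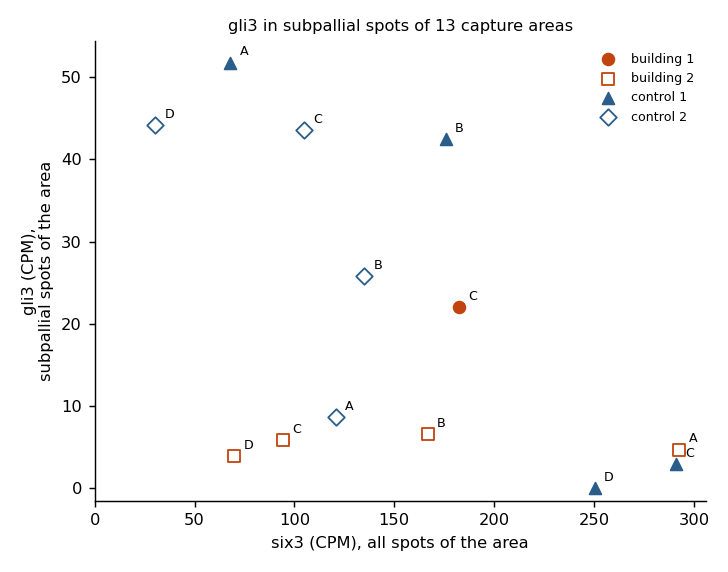
Gli3 level in the subpallial spots of each capture area (vertical axis, CPM) against the six3 level of all its spots (horizontal axis, CPM), 1 point per area with its letter. The 3 areas with the most six3 (250 to 293) have gli3 between 0 and 4.72 on 0 to 14 UMIs, and the 4 areas of building 2 all lie below 7.

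With six3 included, 17 marker sets of cell types or states were treated in the same way, and 13 of the 51 tests of the 3 genes passed, 11 of them higher and 2 lower in the top spots of the set. Over all genes, the share called ranged from 0.186% to 19.9% between the 17 sets. Gli3 was higher in 5 sets. Spots rich in cyp19a1 (LOC106675461), brain aromatase, which fish express in radial glia, held gli3 at 25.2 ± 10.3 CPM and other spots at 6.46 ± 2.69 (SD, n = 4 males), a log2 fold change of 1.93 ± 0.22 (adjusted p 5.29e-05, edgeR; 17.4% of 14054 genes called). Of the cyp19a1 spots 79.7% were subpallial, and within subpallial spots the gli3 difference did not pass (0.78 ± 0.31, adjusted p 0.144, edgeR), a comparison chosen after seeing the data. Spots rich in replication genes (pcna, top2a, mcm2, mcm5, mcm7) held 16.7 ± 5.18 and other spots 7.29 ± 2.80, a log2 fold change of 1.24 ± 0.22 (adjusted p 0.00137, edgeR), in a set where 2.4% of 13874 genes were called. That call was lost with log-normalized scores (0.84, adjusted p 0.130, edgeR). Besides six3, gli3 was also higher in spots rich in isl1 (1.52 ± 0.32, adjusted p 4.21e-05, edgeR; 15.2% of 13781 genes called) and in spots rich in 3 markers of 4.3_GABA, an inhibitory cluster of nuclei in the study (2.04 ± 0.37, adjusted p 0.00136, edgeR; 16% of 13672 genes called). In building 2 gli3 was at 3.97 CPM in 4.3_GABA and 3.85 in other spots, and building 1 had 1 isl1 spot, with no gli3 UMI. The study lists gli3 itself as a marker of 4.3_GABA, and it was left out of the score. It also names gli3, with lhx5, as distinguishing RG_3, a radial glia subcluster in which cyp19a1 rose most strongly with building. The 63 spots of the lhx5 set held 6 gli3 UMIs (3.09 ± 6.18 CPM, SD, n = 4 males), and gli3 did not pass there. Isl1 is 1 of the subpallial markers, and 91.7% of isl1 and 75.9% of 4.3_GABA spots were subpallial. Neither set was compared within subpallial spots, so these calls cannot be told apart from the regional difference. The isl1 call was lost without building 2 (1.14, adjusted p 0.189, edgeR).

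Lrig1 was higher in 5 sets. It was at 46.5 ± 19.0 CPM in spots rich in quiescence genes of radial glia (such as hey1, notch3, id1 and jag1, with no gene of the glia-rich list, though 55.9% of these spots were also glia-rich) and at 14.9 ± 3.69 in other spots, a log2 fold change of 1.71 ± 0.18 (adjusted p 1.53e-06, edgeR; 18.4% of 14047 genes called). In cyp19a1 spots it was at 32.6 ± 10.9 and in other spots at 16.2 ± 4.07 (1.00 ± 0.16, adjusted p 5.58e-04, edgeR). Within the subpallial spots the log2 fold change of lrig1 was 1.32 ± 0.20 (adjusted p 5.55e-04, edgeR; 8.96% of 11546 genes called). Microglia spots held lrig1 at 36.9 ± 22.2 and other spots at 16.4 ± 3.77 (1.31 ± 0.20, adjusted p 3.84e-06, edgeR; 19.9% of 13930 genes called), and 26.9% of those microglia spots were also glia-rich. Vascular spots held it at 28.5 ± 8.31 and other spots at 17.1 ± 4.76 (0.84 ± 0.18, adjusted p 0.00134, edgeR; 6.11% of 13788 genes called), with 16.7% of them glia-rich. In spots of meninges and fibroblast markers the difference was 0.65 ± 0.21 (adjusted p 0.0256, edgeR; 11.3% of 14219 genes called). The vascular call was lost without building 2 (adjusted p 0.251, edgeR), and the meningeal one without building 2 (adjusted p 0.399) and without control 2 (adjusted p 0.536, edgeR). The part of these other cell types in the level of lrig1 was not tested.

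Among the 17 sets fgfr2 was higher in the quiescence spots alone, at 11.5 ± 9.13 CPM against 3.44 ± 0.935 in other spots (SD, n = 4 males). The log2 fold change was 1.71 ± 0.39 (adjusted p 0.00358, edgeR), and that call was lost without building 2 (1.29, adjusted p 0.0764, edgeR). The quiescence list also holds slc1a2, fgfbp3 and selenop, and 55.9% of its spots were glia-rich. It was not compared within glia-rich spots, so this call cannot be told apart from the glia-rich difference. Fgfr2 was lower in isl1 spots, which held only 2 fgfr2 UMIs (adjusted p 0.0194, edgeR), and in 4.3_GABA spots (-1.36 ± 0.43, adjusted p 0.0470, edgeR). These sets are mostly subpallial, where fgfr2 was lower, and were not compared within that region. Both calls were lost when building 1, building 2 or control 2 was left out (edgeR adjusted p 0.0738, 0.113 and 0.141 for isl1, and 0.141, 0.190 and 0.129 for 4.3_GABA). The 4.3_GABA call was also lost with the top 20% of spots (-0.57, adjusted p 0.290) and with log-normalized scores (-1.14, adjusted p 0.0807, edgeR). In cyp19a1 spots fgfr2 was at 1.84 ± 1.66 and in other spots at 4.57 ± 1.52, a difference of -0.998 ± 0.470 that did not pass (adjusted p 0.183, edgeR). None of the 3 genes passed in the oligodendrocyte set, with log2 fold changes of -0.32 ± 0.41 for gli3, -0.46 ± 0.47 for fgfr2 and 0.05 ± 0.24 for lrig1 (edgeR adjusted p 0.781, 0.707 and 0.956).

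**Figure D4:**
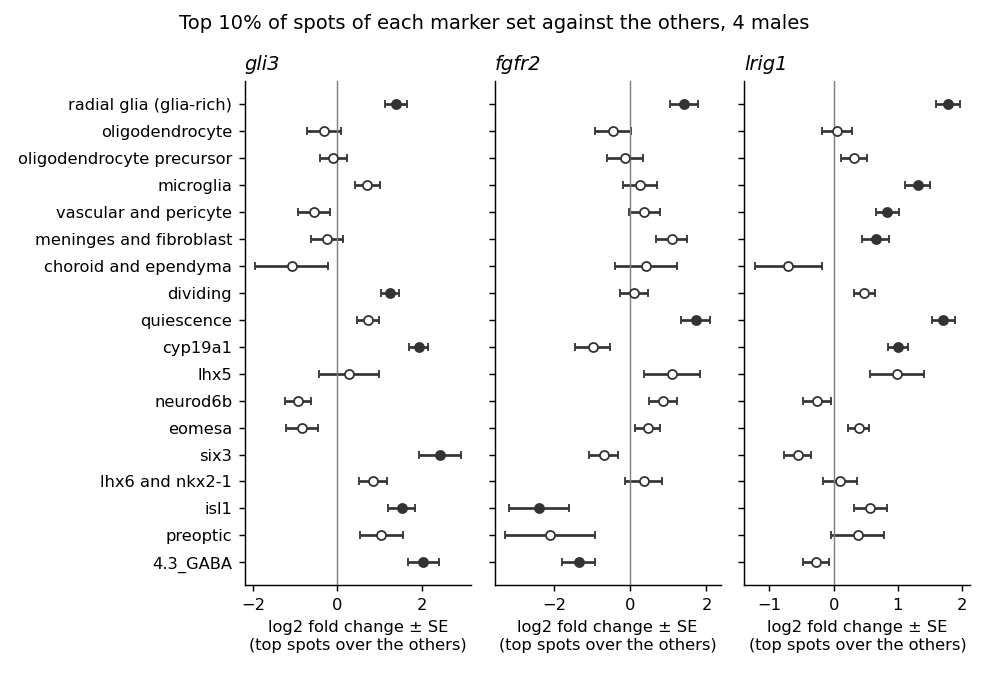
Log2 fold change ± SE (edgeR, 4 males) of each gene in the top 10% of spots of a marker set over the other spots, for the radial glia set and 17 further sets, with filled points where the adjusted p was under 0.05. Gli3 is highest in six3 spots (2.43), fgfr2 in quiescence spots (1.71) and lrig1 in glia-rich spots (1.79).

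The genes seldom shared a spot. None of the 3 was found in 5721 spots, 1 in 921, 2 in 104 and all 3 in 5, of which 3 were glia-rich. Since deep spots are more likely to hold any gene, the number of shared spots was set against that expected among spots of like depth in the same area. Gli3 and lrig1 shared 71 spots where 43.5 were expected, with a log2 odds ratio of 0.97 ± 0.77 (SD, n = 4 males) (0.99 and 2.02 in building males, 0.23 and 0.63 in control males). It was 0.61 without building 2, and with glia-rich and other spots kept apart control 1 was at -0.08. Among spots outside the glia-rich set alone (3 depth strata), it was -0.20 and -0.12 in control 1 and control 2. There it was 1.07 and 1.58 in building 1 and building 2. Among glia-rich spots alone it was 1.84 and 1.60 in building 1 and building 2, and 1.54 and 2.25 in control 1 and control 2. Lrig1 was found in 25.9% of gli3 spots and gli3 in 10.3% of lrig1 spots. Fgfr2 and lrig1 shared 41 spots where 27.4 were expected (0.65 ± 0.61; 0.53 and 1.55 in building males, 0.28 and 0.25 in control males), which were 22.8% of fgfr2 spots and 5.94% of lrig1 spots. This mean was 0.35 without building 2. Gli3 and fgfr2 shared 7 spots where 10.5 were expected, 2 of them in building and 5 in control males. With glia-rich and other spots kept apart, the expected numbers were 53.7, 31.4 and 12.4, and the ratios of shared to expected spots were 1.32, 1.31 and 0.566. With pallial, subpallial and remaining spots kept apart, the expected numbers were 47.6, 27.5 and 8.53, and the ratios 1.49, 1.49 and 0.821. Spots are not replicates, and no test was made.

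**Figure D5:**
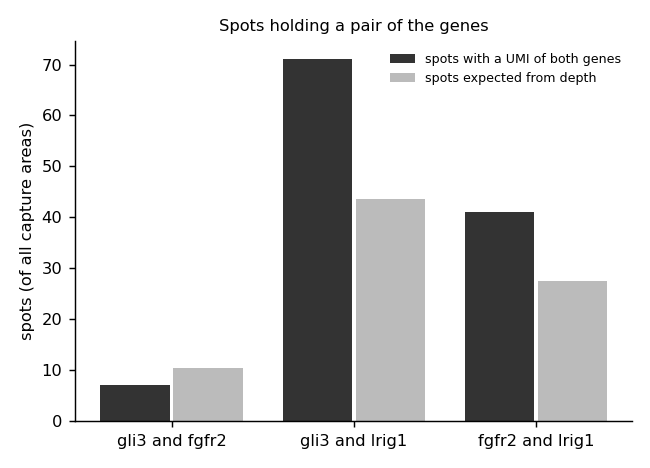
Number of spots with a UMI of both genes of a pair (dark bars) and the number expected among spots of like depth in the same area (light bars), over all 13 areas. Gli3 and lrig1 share 71 spots against 43.5 expected, and gli3 and fgfr2 share 7 against 10.5.

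The genes whose pattern over spots was most like each of the 3 were named by the mean within-area correlation of residuals, among 10679 genes found in at least 5% of spots. These are descriptions over 346 to 837 spots of an area that share a library, and the mean r over all genes had a median near 0. For gli3 they were LOC101480240 (r 0.23 ± 0.21, SD over 4 males), LOC101474395 (penka, a proenkephalin; 0.23 ± 0.21), LOC101483990 (0.21 ± 0.14), zfhx4 (0.20 ± 0.10) and six3 (0.19 ± 0.17), and in the male with the lowest value r was -0.02 for penka and -0.02 for six3. For fgfr2 they were slc1a2, a glial glutamate transporter (0.13 ± 0.09), gpm6b, LOC101481538, LOC101463785 (glul, glutamine synthetase; 0.11 ± 0.08) and atp1b4. For lrig1 they were fabp7, the radial glial fatty acid binding protein (0.21 ± 0.10), mdk, LOC101477439, id1, an inhibitor of differentiation (0.18 ± 0.09), and LOC101466716, and r with fabp7 was above 0 in 12 of 13 areas. Fabp7 also correlated with gli3 (0.10 ± 0.03, above 0 in 13 of 13 areas). The other glial markers were lower with gli3, at 0.07 ± 0.04 for gfap, 0.06 ± 0.05 for slc1a3 and 0.01 ± 0.03 for s100b. With fgfr2, r was 0.08 ± 0.05 for fabp7, 0.06 ± 0.06 for s100b, 0.02 ± 0.01 for slc1a3 and -0.01 ± 0.01 for gfap. For gfap it was above 0 in 6 of 13 areas. Fgfr2 and cyp19a1 were at -0.01 ± 0.02, above 0 in 2 of 13 areas. The spread of lrig1 over spots, as a residual variance of 1.34 ± 0.18, ranked 1751 of the 10679 genes, whose median was 1.16.

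The pathways of the 3 genes were read from lists matched by name. Of 11 tested genes of the Hedgehog pathway, 7 were higher and none lower in glia-rich spots, with a median log2 fold change of 1.20, against -0.02 over all 14080 genes, of which 15.9% were called. Among these, besides gli3, were the receptor gene ptch1 (1.19 ± 0.19, adjusted p 1.55e-04), the signal transducer smo (2.08 ± 0.33), the co-receptor genes boc (1.20 ± 0.21) and cdon (1.99 ± 0.24), and the target and effector gli1 (2.32 ± 0.34, adjusted p 4.53e-05, edgeR). Between regions, where 23.6% of 13670 genes were called, 2 of 11 were higher and 4 lower in pallial spots. Among them were shh, the ligand, at -3.58 ± 0.46 (adjusted p 2.84e-04, edgeR), boc at -0.65 ± 0.19 and cdon at 0.83 ± 0.23. Shh was rare (mean log2 CPM 1.18) and was not tested in glia-rich spots. The count filter may have admitted it through its subpallial level alone, so its call carries little weight. Ptch1 and gli1 had values of 0.15 ± 0.18 and -0.26 ± 0.32 and did not pass (edgeR adjusted p 0.623 and 0.630).

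The FGF list was matched by name and includes fgf11, fgf12, fgf13 and fgf14. Whether its genes act through Fgfr2 was not tested. Of 16 tested genes of this list, 4 were higher and 1 lower in glia-rich spots, with a median of -0.06. Over all 14080 genes the median was -0.02, and 15.9% were called, 10.3% of them all as higher. Fgfr2, spry1 (1.65 ± 0.17), spry2 (2.08 ± 0.28) and fgfbp3 (2.48 ± 0.10, adjusted p 2.06e-13) were higher, the Sprouty proteins being feedback inhibitors and Fgfbp3 a carrier of the ligands, and spred3 was lower (-0.52 ± 0.14, edgeR). Fgfbp3 is also in the quiescence list. In pallial over subpallial spots, with 23.6% of all genes called, 4 were higher and 5 lower. On the side of fgfr2 were etv5 (LOC101464108, 0.99 ± 0.08, adjusted p 1.43e-05, edgeR), fgf13 (0.91 ± 0.09, adjusted p 4.61e-05, edgeR) and dusp6 (0.43 ± 0.11). On the other side were fgf14 (-1.06 ± 0.22), etv1 (-0.64 ± 0.18), fgf6 (-0.35 ± 0.10), etv4 (-0.81 ± 0.25) and spry2 (-0.70 ± 0.23, edgeR). The third list held ErbB receptors, their ligands and LRIG proteins, and also errfi1, rnf41, cbl and cblb. Of its 10 tested genes, 3 were higher in glia-rich spots, where 15.9% of all genes were called. They were lrig1, lrig3 (1.31 ± 0.42, adjusted p 0.0360, edgeR) and the receptor gene erbb2 (1.64 ± 0.30, adjusted p 4.49e-04, edgeR). In pallial spots 3 of the 10 were called, against 23.6% of all genes: erbb4, the neuregulin receptor gene, was lower (-1.001 ± 0.145), as was cblb (-0.64 ± 0.17), and the ligand gene nrg3 was higher (0.62 ± 0.10, edgeR). In building against control males no gene of the Hedgehog, FGF and ErbB lists passed, of 13, 18 and 10 tested (edgeR; 0, 3 and 0 at an unadjusted p under 0.05).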

How the data were processed

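The authors aligned and counted reads with Space Ranger 1.3.1 (per the labels) on the Maylandia zebra UMD2a RefSeq assembly and deposited UMI counts, not normalized, in a matrix for each of 13 capture areas. The 4 spots with 0 UMIs were left out. The members and lists were chosen with earlier results of these data known. Counts were summed per male, or per male and spot class with male as a block, and tested in edgeR 4.0.16 by quasi-likelihood after filterByExpr and TMM scaling, with p-values adjusted over all genes tested (Benjamini-Hochberg, threshold 0.05). DESeq2 1.42.0 served as an alternative. SEs come from the fold change and the F statistic. Spot sets were the top 10% of each area by summed analytic Pearson residuals (theta 100), and sets of rare markers hold fewer spots. Shared spots were compared in 10 depth strata. The fits were also run on simulated counts with a fixed dispersion and, apart from the changes put in, the same gene shares in all males. That setting lacks the differences between males seen here. Named were the 3 genes, the markers, the 5 genes most alike to each and pathway genes that passed, at most 8 a fit, or had most UMIs. Free RNA in a section also gives UMIs. No paired main analysis was made, since no label ties equal replicate numbers.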

Additional observations from a re-analysis of the deposited data

Results flagged for a closer look

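Gli3 in building 1 C stood far from the other building areas. Over all spots it was at 9.28 CPM, against 3.13 to 4.76 in the other 4 building areas, and in subpallial spots at 22.0, against 3.91 to 6.57. Building 1 has no other area, and the other 4 are those of building 2, so the area and the male cannot be told apart. The check was made on 24 sets of 5 or 8 areas and is a description, since areas of a male are not replicates. A chance rate of about 1 in 20 would need independent areas.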

How the results depend on the processing

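Between building and control males, the counts of 0 called genes (edgeR) became 17 with DESeq2 and 62 with no filter on low counts over all spots, 7 (DESeq2) and 1 (replicate block) in pallial spots, 5 (DESeq2) and 1 (replicate block) in subpallial spots, and 11 (DESeq2) and 123 (replicate block) in glia-rich spots. When each male was left out in turn, the counts ran from 0 to 173 over all spots, 0 to 98 in pallial, 0 to 258 in subpallial and 50 to 146 in glia-rich spots, and 0 to 244 for the region by condition interaction, with 1 male left in 1 group and assumed to vary like the others.

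Over all spots the left-out males moved gli3 between -1.39 and -0.14, fgfr2 between -0.37 and 0.56 and lrig1 between -0.23 and 0.57 on the log2 scale. Direction also changed for fgfr2 (-0.35 to 0.74) and lrig1 (-0.33 to 0.033) in pallial spots, lrig1 (-0.39 to 0.57) in subpallial spots, gli3 (-0.57 to 0.38) in glia-rich spots, and gli3 (-0.93 to 1.60), fgfr2 (-0.90 to 0.76) and lrig1 (-0.54 to 0.066) in the interaction. With the replicate block gli3, fgfr2 and lrig1 differed by -0.82, 0.05 and 0.14 over all spots and no call changed. Deviations of building 1 and control 1 correlated at 0.23 over 15532 genes, with 2 pairs. The study describes its males as size-matched pairs, but no label says which males form one, so whether the block pairs them is not known.

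Between regions the count of 3226 became 1956 with no replicate block for the male and 2009 to 3442 with a male left out. Fgfr2 was then at 1.26 (adjusted p 0.0540, edgeR, no replicate block) and at 1.05 to 1.47 (adjusted p 0.0324 to 0.0846). For glia-rich spots the count of 2233 ran from 1353 to 2075 with a male left out, gli3 was at 0.82 (adjusted p 0.0645) with a wider list of 11 radial glia genes, and fgfr2 was at 1.01 (adjusted p 0.0733, edgeR) with log-normalized scores and at 1.12 to 1.72 with a male left out. Between pallial and subpallial glia-rich spots 1248 genes were called with the top 20% of spots and 454 to 732 with a male left out, against 769. Of the 51 marker set tests, 8 to 13 passed with a male left out. The causes of these shifts were not tested. Without control 1 C, left out after seeing the data, no call of the 3 genes changed over all spots, between regions or in glia-rich spots, and lrig1 in glia-rich spots was called in all 12 alternatives. The genes' few UMIs per area limit all values by area.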
